A study of Mus musculus with 2 samples.

Results

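Acyl-CoA synthetases activate fatty acids. The 8 genes described here were *Acsl1*, *Acsl3*, *Acsl4*, *Acsl5*, *Acsm1*, *Acsm3*, *Acsm5* and *Acss2*. They were chosen by name, with earlier results of these data known. All 8 were found among the 45777 genes of the deposited table. The RNA came from livers of C57BL/6 mice that were all fed a high-fat diet (HFD) for 18 weeks, from the age of 7 weeks. After 13 weeks of the diet the mice received, through the retro-orbital route, an adeno-associated virus that encoded GFP (AAV-GFP, the control) or the long noncoding RNA *Wee1-AS* (AAV-*Wee1-AS*), and livers were taken 5 weeks later. The vector was of serotype AAV9 and carried the CMV promoter, which is not restricted to hepatocytes. One comparison follows from this design, that of the livers with AAV-*Wee1-AS* with the control livers, and it asked how the delivered RNA altered gene expression in the fatty liver. Here 1 library per group was analysed, although 4 liver samples are mentioned where the series describes its design. The labels do not say how many mice stood behind a library. There is therefore no spread between mice, no test and no p-value. Differences below are differences between the 2 libraries, and their intervals cover counting error only. *Wee1-AS* itself was not analysed here.

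A fatty acid cannot be used in β-oxidation, esterification or elongation until it has been joined to coenzyme A. Acyl-CoA synthetases carry out this step at the expense of ATP. The families are named by the chain length they prefer. ACSL enzymes take the long-chain fatty acids that make up most dietary and stored fat, and sit on the endoplasmic reticulum, the outer mitochondrial membrane or lipid droplets. ACSM enzymes take medium-chain and aromatic acids in the mitochondrial matrix, where their products can be conjugated to glycine, and ACSS2 makes acetyl-CoA from acetate in the cytosol and nucleus. In hepatocytes the same acyl-CoA pool feeds both β-oxidation and triglyceride synthesis.

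The upstream sequences of *Acsl1* and *Acsl5* are shown first because the transcripts of these genes that start at different positions differed in their ratios between the libraries, as described below. Each sequence is the 250 bases before a transcript start, taken from RefSeq for the build GRCm38.p6 and read 5′ to 3′ on the plus strand. Capitals mark matches to the motifs searched. The first 2 windows lie before the first start of *Acsl1* (chr8:46470787-46471036) and before the internal start of its transcript NM_001302163 (chr8:46490716-46490965), and the last lies before the start of the *Acsl5* transcript NM_027976 (chr19:55253119-55253368). NM_027976 is the minor transcript of *Acsl5*, and no window of the main one, XM_006527178, was analysed here. Likewise, NM_001302163 is not the largest *Acsl1* transcript with an internal start, and no window of that one, XM_017312563, was analysed.
*Acsl1*, first start: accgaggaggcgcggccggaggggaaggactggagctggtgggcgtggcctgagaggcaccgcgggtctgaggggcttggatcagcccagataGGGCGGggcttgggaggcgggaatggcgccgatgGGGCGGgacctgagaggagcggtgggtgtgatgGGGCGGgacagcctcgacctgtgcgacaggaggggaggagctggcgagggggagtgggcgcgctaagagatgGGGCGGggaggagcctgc
*Acsl1*, internal start: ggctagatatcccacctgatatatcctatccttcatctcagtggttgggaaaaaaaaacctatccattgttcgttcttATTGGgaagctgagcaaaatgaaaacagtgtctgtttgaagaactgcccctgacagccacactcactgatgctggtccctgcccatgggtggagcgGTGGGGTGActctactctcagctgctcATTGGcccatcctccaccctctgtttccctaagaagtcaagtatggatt
*Acsl5*, NM_027976: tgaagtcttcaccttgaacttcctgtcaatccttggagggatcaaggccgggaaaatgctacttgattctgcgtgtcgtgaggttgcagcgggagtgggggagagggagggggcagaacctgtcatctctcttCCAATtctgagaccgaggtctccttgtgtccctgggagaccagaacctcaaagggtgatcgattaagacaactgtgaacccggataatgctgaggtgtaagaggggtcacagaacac
The motifs were the GC box GGGCGG, the CCAAT box, the TATA box TATAAA, the E-box CACGTG, the nuclear receptor motif AGGTCA and TCACNCCAC, a form of the sterol regulatory element. Each was searched on both strands. The window of the first *Acsl1* start had a GC content of 72.0% with 20 CpG sites and held 4 GC boxes, the nearest at -18 to -13 from the start, and no CCAAT. The window of the internal start of NM_001302163 had a GC content of 48.4% with 2 CpG sites and held no GC box. It held 2 CCAAT motifs on the minus strand and, at -76 to -68, also on the minus strand, the sterol regulatory element form. The window of NM_027976 had a GC content of 52.8% and held 1 CCAAT at -117 to -113. Among the 32851 RefSeq windows of this length, 32.7% held a GC box, 4.09% held at least 4, 33.8% held CCAAT and 1.05% held TCACNCCAC. A match is a run of letters and not a shown binding site.

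Windows were present for all 8 genes, 9 in number with the 2 of *Acsl1*. They fell into those rich in GC and those near the median of all windows (52.4%). *Acsl3* (75.6%, 5 GC boxes), *Acsl1* at its first start, *Acsl4* (70.8%, 2 GC boxes that overlap each other) and *Acss2* (64.0%, 4 GC boxes) made up the former. *Acsm1*, *Acsm3* and *Acsm5*, with 49.2% to 51.2%, had no GC box. CACGTG, which 6.02% of all windows held, occurred before *Acsm5*, AGGTCA, which 14.0% held, occurred before *Acsm1*, and TATAAA, which 12.4% held, occurred before none of the 8.

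The 2 libraries held 55466182 (AAV-GFP) and 48079335 (AAV-*Wee1-AS*) estimated counts, of which the 8 genes took 0.152% and 0.240%. Counts summed per gene were scaled by the TMM method, with factors of 1.02 and 0.980, and the log2 ratio was formed as AAV-*Wee1-AS* over AAV-GFP with a prior count of 2. In all, 15857 genes that reached 10 counts in either library were kept, and the median of their log2 ratios was -0.02. Of these, 22.2% had a ratio above 2 and 8.71% a ratio below 0.5 (3527 and 1381 genes). With upper quartile scaling the split was 2938 and 2232, and with the GC and length trends removed it was 1000 and 1226. Across 15109 genes with an annotated transcript, the ratio followed the GC content of the transcript (Spearman coefficient -0.69, across genes of the same 2 libraries) and, less closely, its length (0.35). When these genes were divided by GC content into 10 groups of like size, the median log2 ratio was 1.51 in the lowest group and -0.70 in the highest. Below, genes of like GC content are those of the same group. For each of the 8 synthetases the GC content is therefore given, and its ratio is also given with both trends removed by lowess fits. With 1 library per group, a difference between the livers and one between the library preparations cannot be told apart.

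All 8 acyl-CoA synthetases were higher in the AAV-*Wee1-AS* library, and for each the 95% counting interval of the ratio lay above 1. Among all genes 49.5% had a ratio above 1 and 39.1% had an interval wholly above 1. Acyl-CoA synthetases outside this set went both ways, 7 higher and 6 lower of 13 kept, as described below. The medium-chain synthetase *Acsm3* and the long-chain synthetases *Acsl4* and *Acsl3* were about 3-fold higher, *Acsl1* was at 2-fold, and *Acsl5*, *Acss2*, *Acsm5* and *Acsm1* had ratios between 1.40 and 1.18. Thus 4 of the 8 had a ratio above 2 and none a ratio below 0.5. The interval lay wholly above 2 for 3 of them, against 16.0% of all genes, and the interval of *Acsl1* included 2. The median log2 ratio of the 8 was 0.75. With the GC and length trends removed, 6 of 8 remained above 1 (49.7% of all genes), none was above 2 (6.62% of all genes), and the median was 0.35.

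**Figure D1:**
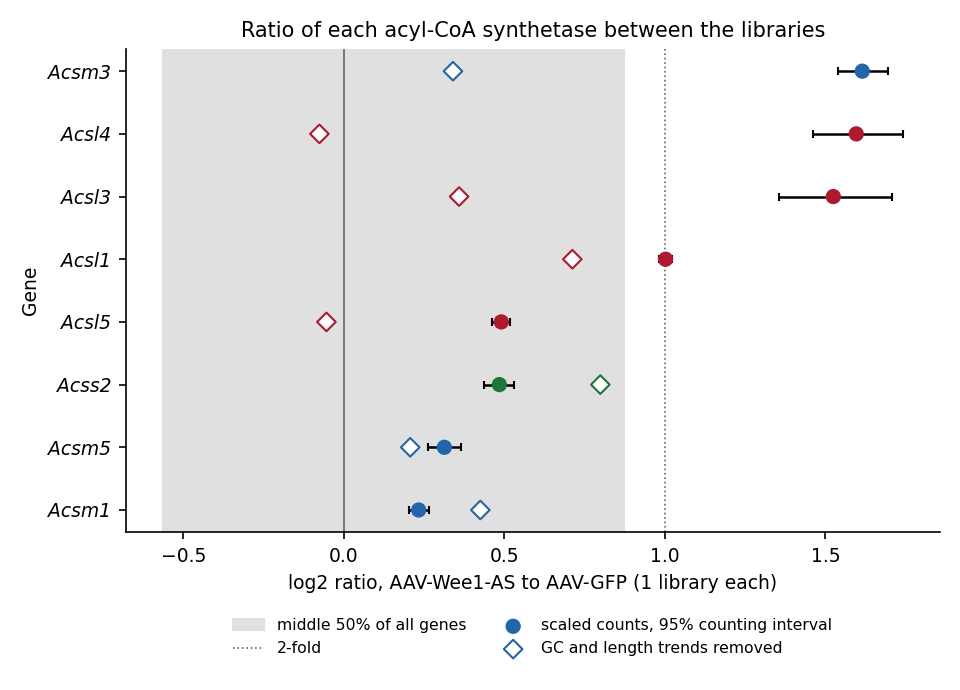
Log2 ratio, AAV-*Wee1-AS* over AAV-GFP (horizontal axis), for each of the 8 genes (vertical axis), 1 library per group, with red for long-chain, blue for medium-chain and green for short-chain synthetases. Filled circles are scaled counts with 95% counting intervals and lie between 0.23 and 1.61, open diamonds are values with the GC and length trends removed and lie between -0.08 and 0.80, and the grey band holds the middle 50% of all genes (-0.56 to 0.87).

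*Acsl1* (NCBI gene 14081, chr8:46471037-46536051, mm10) encodes the main long-chain acyl-CoA synthetase of liver and of other tissues that oxidise fat. It had 33910 counts in AAV-GFP and 56580 in AAV-*Wee1-AS*, or 265 and 521 TPM. The ratio was 2.00 (95% counting interval 1.98 to 2.03), a log2 ratio of 1.00. It was the most abundant of the 8 in both libraries, ranking 545 and 234 by TPM among all genes. Its transcript has a GC content of 49.0%, and among genes of like GC content the median log2 ratio was 0.12 and 14.8% had a ratio above 2. With the trends removed its log2 ratio was 0.71, higher than that of 87.4% of genes. Because its value lay at the 2-fold limit, the call turned on the processing. The log2 ratio was below 1 under 6 of the 8 alternatives, from 0.80 to 0.98 under the 3 other scalings, 0.95 with FPKM, 0.97 with TPM and 0.71 with the trends removed.

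*Acsl5* (NCBI gene 433256, chr19:55251861-55296628), a long-chain synthetase found on mitochondria and the endoplasmic reticulum, was the second long-chain synthetase by abundance. It had 18624 counts in AAV-GFP and 21796 in AAV-*Wee1-AS*, or 217 and 303 TPM. The log2 ratio was 0.49 (0.46 to 0.52), next to a median of 0.46 for genes of like GC content (47.6%), and -0.05 with the trends removed. The GC content and length used for *Acsl5* were those of a GENCODE transcript of 4243 bases. Its main transcript here, XM_006527178, has 2569 bases and held 93.5% and 98.2% of its counts. How far the values of *Acsl5* with the trends removed depend on this was not tested. The ratio of *Acsl1* to *Acsl5* in TPM was 1.22 in AAV-GFP and 1.72 in AAV-*Wee1-AS*, or 2.07 in the latter with the trends removed.

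*Acsl3* (NCBI gene 74205, chr1:78657825-78707743) encodes the synthetase of lipid droplets and the endoplasmic reticulum, and *Acsl4* (NCBI gene 50790, chrX:142317993-142390802, minus strand) the one that prefers arachidonic acid and supplies the polyunsaturated phospholipids that are oxidised in ferroptosis. Both were scarce. *Acsl3* had 377 counts and 907 counts, or 2.94 and 8.34 TPM, a log2 ratio of 1.52 (1.36 to 1.71). *Acsl4* had 581 counts and 1467 counts, or 3.53 and 10.5 TPM, a log2 ratio of 1.60 (1.46 to 1.74). Their transcripts are low in GC (43.2% and 39.0%), and among genes of like GC content the median log2 ratios were 1.14 and 1.51, with 57.4% and 68.9% of genes above 2-fold. With the trends removed the log2 ratio of *Acsl3* was 0.36. That of *Acsl4* was -0.08, so its direction did not hold.

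*Acsm1* (NCBI gene 117147, chr7:119617757-119662515), a medium-chain synthetase of liver mitochondria, was the most abundant ACSM gene. It had 16433 counts in AAV-GFP and 16089 in AAV-*Wee1-AS*, or 244 and 281 TPM. The log2 ratio was 0.23 (0.20 to 0.26), the lowest of the 8. With upper quartile scaling, which moved the median of all genes to -0.22, it was 0.03. For genes of like GC content (51.1%) the median was -0.10, and with the trends removed *Acsm1* stood at 0.43. *Acsm5* (NCBI gene 272428, chr7:119526131-119543360), a further medium-chain synthetase, had 5793 and 5995 counts, or 67.8 and 83.3 TPM. Its log2 ratio was 0.31 (0.26 to 0.37) at a GC content of 49.2%, and 0.21 with the trends removed.

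*Acsm3* (NCBI gene 20216, chr7:119760883-119784896), also a mitochondrial medium-chain synthetase, had 1876 counts in AAV-GFP and 4790 in AAV-*Wee1-AS*, or 21.7 and 64.7 TPM. The log2 ratio of 1.61 (1.54 to 1.69) was the highest of the 8. The GC content of its transcript was 41.7%, the median log2 ratio of genes of like GC content was 1.51, and with the trends removed its log2 ratio was 0.34, between those of *Acsm5* and *Acsm1*. *Acsm1* exceeded *Acsm3* 11.2-fold in TPM in AAV-GFP and 4.35-fold in AAV-*Wee1-AS*, but 11.9-fold in the latter with the trends removed. The 3 genes belong to a cluster of *Acsm* genes that spans 259 kb of chromosome 7, in the order *Acsm5*, *Acsm2*, *Acsm1*, *Acsm4*, *Acsm3*. *Acsm2* had 0 and 11 counts and *Acsm4* had 0 in both libraries.

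*Acss2* (NCBI gene 60525, chr2:155518043-155562743), the acetyl-CoA synthetase of cytosol and nucleus and a target of sterol regulatory element-binding proteins, had 6780 counts in AAV-GFP and 7902 in AAV-*Wee1-AS*, or 72.7 and 99.9 TPM. The log2 ratio was 0.48 (0.44 to 0.53). Its transcript has the highest GC content of the 8 (52.4%). Among genes of like GC content the median log2 ratio was -0.35 and 25.3% of genes had a ratio above 1. With the trends removed *Acss2* had the highest log2 ratio of the 8 (0.80), above that of 89.6% of genes, followed by *Acsl1*.

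**Figure D2:**
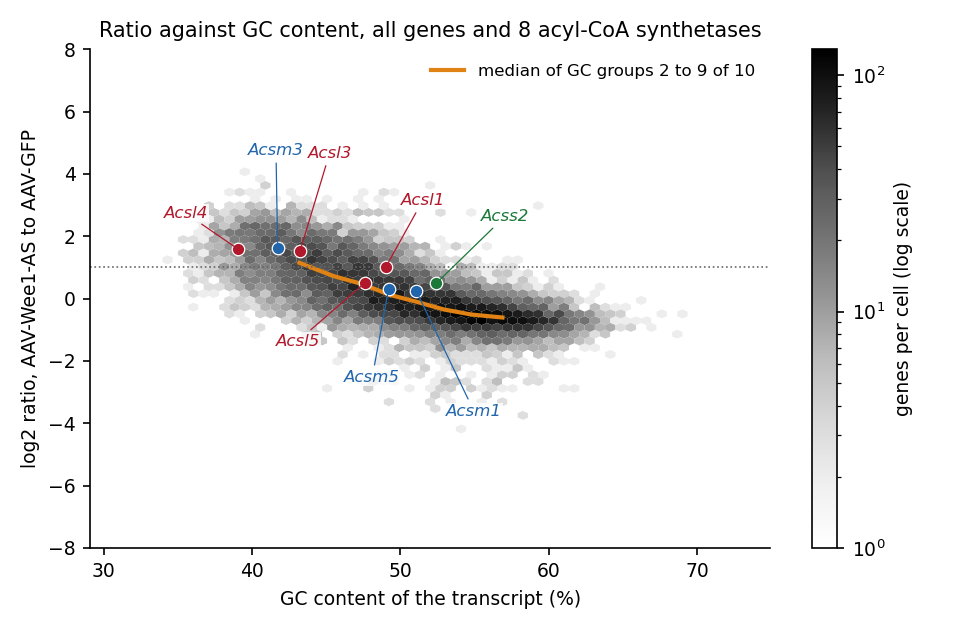
Log2 ratio, AAV-*Wee1-AS* over AAV-GFP, against the GC content of the transcript in percent, for 15108 of 15109 genes (grey cells, darker for more genes, on a log scale). The 8 synthetases are points (red long-chain, blue medium-chain, green short-chain). The line joins the medians of groups 2 to 9 of the 10 groups of genes by GC content. The median of the lowest group, which holds *Acsl4* and *Acsm3*, is not drawn. *Acsl1* and *Acss2* lie 0.88 and 0.84 above the median of their GC group, and the other 6 lie 0.03 to 0.38 above it.

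Levels between genes were compared in TPM, which accounts for length. In AAV-GFP the order was *Acsl1*, *Acsm1*, *Acsl5*, *Acss2*, *Acsm5*, *Acsm3*, *Acsl4* and *Acsl3*. In AAV-*Wee1-AS* the order was the same except that *Acsl5* stood before *Acsm1*. Without replicates, it cannot be said whether neighbours such as *Acsl5* and *Acsm1*, or *Acss2* and *Acsm5*, differ beyond the spread between mice. Summed by chain length, the ACSL genes had 489 and 843 TPM (1.73-fold) and the ACSM genes 333 and 429 TPM (1.29-fold). *Acss2*, the only short-chain gene, had a fold of 1.38 in TPM, and all 8 genes had 894 and 1372 TPM (1.53-fold). The ACSL share of the total was 54.6% in AAV-GFP and 61.4% in AAV-*Wee1-AS*. This larger ACSL share was not seen with the GC and length trends removed, a computation added after the data were seen. When the AAV-GFP level of each gene was multiplied by its fold without the trends, the ACSL sum was 1.33-fold and the ACSM sum 1.30-fold that of AAV-GFP, and the ACSL share was 53.8%. By this computation *Acss2* was 1.74-fold, with a share of 10.5%, against 8.12% in AAV-GFP. With the trends kept, its share in AAV-*Wee1-AS* was 7.28%. *Acsl1* and *Acsl5* together held nearly all of the ACSL sum, and *Acsl3* and *Acsl4* held 0.602% and 0.722% of it in AAV-GFP and 0.99% and 1.25% in AAV-*Wee1-AS*. Within the ACSM sum the share of *Acsm3* was 6.50% and 15.1%, and that of *Acsm1* was 73.1% and 65.5%. By the same computation without the trends these shares became 6.33% and 75.6%, so the larger share of *Acsm3* was not seen either. In bulk tissue, a change in the number of cells that express a gene and a change in RNA per cell cannot be told apart.

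**Figure D3:**
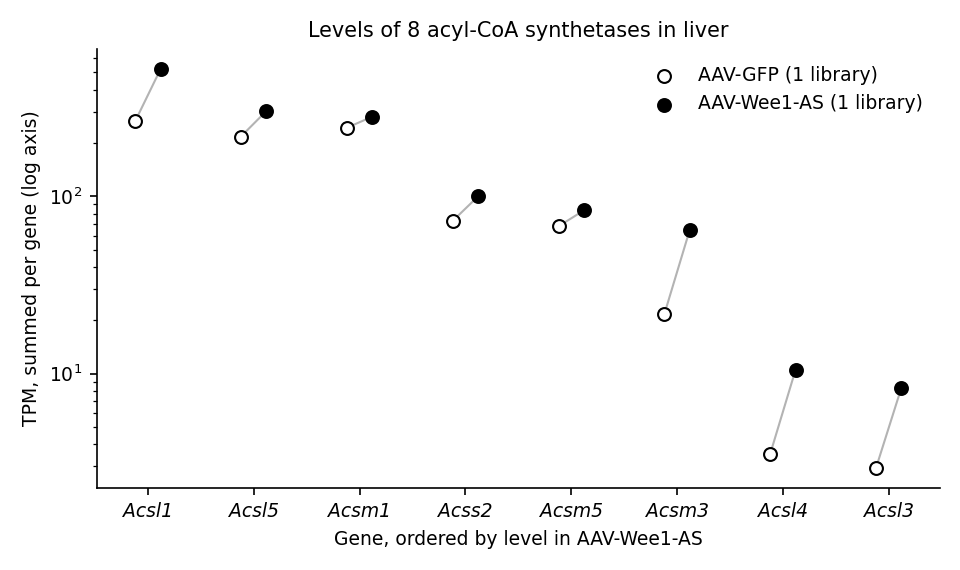
TPM summed per gene (vertical axis, log scale) for the 8 genes, ordered by their level in AAV-*Wee1-AS*, with an open circle for the AAV-GFP library and a filled circle for the AAV-*Wee1-AS* library. Every filled circle lies above its open circle, and the levels run from 2.94 to 521 TPM.

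The 8 genes had 34 listed transcripts, of which 31 had at least 10 counts in a library. Of these, 26 were higher and 5 lower in AAV-*Wee1-AS*, and 48.1% of all 39605 transcripts with as many counts had a ratio below 1. Among the higher ones, XM_006509266, XM_011247842, XM_011247843, XM_006507475 and XM_017322060 reached 10 counts only in AAV-*Wee1-AS*. They had 0 to 3 counts in AAV-GFP, whereas all 5 lower transcripts reached 10 counts in both libraries. The counts of transcripts are estimates that the quantification program shares out between overlapping models, so the counting intervals leave out the error of that division. The 5 lower transcripts belonged to *Acsl1* (2), *Acsl5*, *Acsm1* and *Acsm5*.

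*Acsl1* transcripts of the first start and of the internal starts differed in their summed ratios, though not transcript by transcript. NM_007981, which begins at the first start, had 29803 counts in AAV-GFP and 52011 in AAV-*Wee1-AS*, a log2 ratio of 1.07 (1.05 to 1.09). The 6 transcripts that begin at least 17309 bases downstream, one of them at the internal start whose window is shown above, summed to 3989 and 4340 counts, a log2 ratio of 0.39 (0.32 to 0.45). The intervals of the 2 sums, that of the internal starts and that of the 2 transcripts at or near the first start (1.05 to 1.09), did not overlap. These intervals cover counting error only and leave out the error of dividing reads between overlapping models. How often the intervals of such sums separate in other genes was not counted. Internal starts made up 11.8% of *Acsl1* counts in AAV-GFP and 7.67% in AAV-*Wee1-AS*. The largest of them, XM_017312563, had 2876 and 3194 counts, and NM_001302163 had 657 and 769. Both lower *Acsl1* transcripts, XM_006509265 (206 and 121 counts) and XM_006509262 (116 and 45 counts), were among them. XM_030243285 (133 and 196 counts, log2 ratio 0.81, 0.50 to 1.15) also starts internally, with an interval that includes the ratio of NM_007981, and XM_006509266 had 1 and 15 counts.

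*Acsl5* transcripts went in opposite directions. XM_006527178, which starts 1508 bases upstream of the other, had 17419 counts in AAV-GFP and 21395 in AAV-*Wee1-AS*, a log2 ratio of 0.56 (0.53 to 0.59). NM_027976, whose upstream window is shown above, had 1205 and 401 counts, a log2 ratio of -1.32 (-1.49 to -1.16). Its share of *Acsl5* was 6.47% (95% Clopper-Pearson interval 6.12 to 6.83) in AAV-GFP and 1.84% (1.67 to 2.03) in AAV-*Wee1-AS*. Since NM_027976 is the only curated RefSeq transcript of *Acsl5* in the table and XM_006527178 a predicted model, the direction of the gene depends on this choice: with curated transcripts only, the log2 ratio of *Acsl5* was -1.28.

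Transcripts of *Acsm3* begin close to one another, between positions 119760883 and 119760932, and differ in length. NM_212441 had 1028 and 3039 counts, 54.8% and 63.4% of the gene, with a log2 ratio of 1.83 (1.72 to 1.93). NM_212442 had 631 and 867 counts, 33.6% and 18.1% of the gene, with a lower log2 ratio of 0.72 (0.57 to 0.87). The other 6 *Acsm3* transcripts were each at most 6.70% of the gene in both libraries and were all higher in AAV-*Wee1-AS*. The models XM_006507475 and XM_017322060 went from 3 counts each to 78 and 77.

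*Acsl3* counts were divided between NM_028817 (189 and 536 counts) and NM_001033606 (188 and 371 counts). The former was 50.1% of the gene in AAV-GFP and 59.1% in AAV-*Wee1-AS*. In *Acsl4*, NM_019477 had 397 and 1007 counts, a share of 68.3% and 68.6%, or 68.3% and 74.0% of the curated transcripts only. The *Acsl4* models XM_011247842 and XM_011247843 had 0 counts in AAV-GFP and 65 and 42 in AAV-*Wee1-AS*. *Acsm1* consisted almost wholly of NM_054094 (95.2% and 96.2%), and its other transcript, XM_006507214, had 790 and 607 counts with an interval of the log2 ratio that included 0 (-0.27 to 0.04). *Acsm5* was spread over NM_178758 (2065 and 2556 counts), XM_006507904 (2064 and 2015) and XM_006507905 (1647 and 1355), whose log2 ratios of 0.57, 0.23 and -0.02 differed, and the last had an interval that included 0. *Acss2* had 1 transcript.

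**Figure D4:**
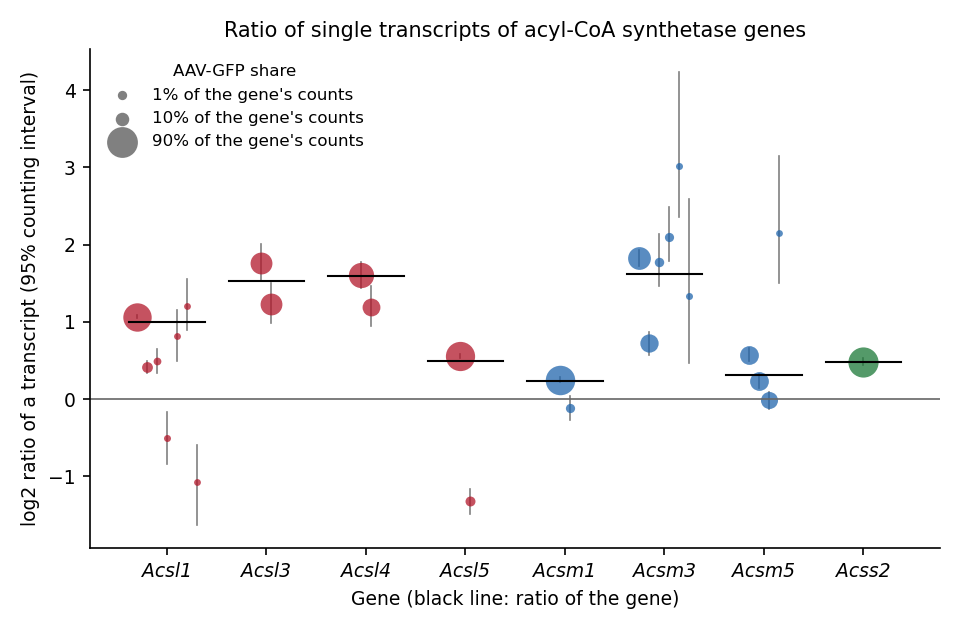
Log2 ratio, AAV-*Wee1-AS* over AAV-GFP (vertical axis), for 26 single transcripts of the 8 genes with 95% counting intervals (thin lines), the area of a point growing with the share of the gene's AAV-GFP counts, and a black line at the ratio of the gene. Transcripts with 3 counts or fewer in a library are not drawn, and 5 points lie below 0, of which NM_027976 of *Acsl5* is the lowest at -1.32.

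Genes that overlap a synthetase could share its reads. *Utp14b*, on the same strand as *Acsl3* and with the same start, had 67 and 202 counts, 17.8% and 22.3% of those of *Acsl3*. How many reads of either gene were assigned to the other was not measured, so the error in the counts of *Acsl3* is not known. *Eri2*, on the opposite strand at the end of *Acsm3*, had 61 and 205 counts, and *Pdilt*, opposite *Acsm5*, had 71 and 244, at most 4.28% of the gene overlapped. *Gm39079*, which overlaps *Acsm1*, had 321 and 569 counts. *Gm19950*, opposite *Acsm1*, had 0 and 6 counts, and *Gm31050* at *Acsl1*, LOC115487103 at *Acsl3*, *Gm31595* at *Acsl5* and *Acss2os* at *Acss2* had 0 in both. The libraries were made with a kit that marks strand, but whether the authors' quantification used the strand is not given in the sources used here.

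The remaining acyl-CoA synthetases, taken from a list of 19 names, did not share a direction. Of 18 in the table, 13 passed the count filter, 7 of them higher and 6 lower, with a median log2 ratio of 0.32. Among them, *Acsm2* had 0 and 11 counts and *Acss1* 19 and 6, and each passed only through the library where it was higher. With the trends removed 8 of the 13 were above and 5 below 0, with a median of 0.26, next to 0.35 for the 8 genes described. The median of this list was 0.04 with FPKM, 0.08 with TPM and 0.11 with upper quartile scaling. For the 8 genes it was 0.70, 0.73 and 0.54. For this list and the ones that follow, the pair in parentheses after a gene or its counts gives the gene's log2 ratio and then that with the GC and length trends removed. *Acss3*, a mitochondrial propionyl-CoA synthetase, had 481 and 1273 counts (1.66, 0.09). *Slc27a2*, which encodes the very long-chain synthetase FATP2, had 52318 and 56070 counts (0.36, 0.64), and *Aasdh* had 195 and 234 (0.52, 0.26). *Slc27a4* (FATP4) had 5902 and 2666 counts (-0.88, -0.44), the acetoacetyl-CoA synthetase *Aacs* 10875 and 5362 (-0.76, -0.19) and the malonyl-CoA synthetase *Acsf3* 4010 and 1999 (-0.74, -0.08). The transcripts of the last 3 were rich in GC (56.8%, 56.9% and 57.5%), and that of *Acss3* was not (40.5%).

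Genes that carry acyl-CoA or fatty acids in the cell showed both directions, 8 higher and 3 lower of 11, with a median log2 ratio of 0.21. This balance turned over with the trends removed, to 3 above and 8 below 0, with a median of -0.38. *Acbd5*, a peroxisomal acyl-CoA-binding protein, had 1385 and 6256 counts (2.44, 0.85), and *Acbd3*, a Golgi protein with an acyl-CoA-binding domain, had 228 and 702 counts (1.88, 1.19). Both were higher either way. The fatty acid transporter *Cd36* had 4083 and 6052 counts (0.83, -0.62), so its direction changed. *Acbd4*, with 5206 and 1985 counts (-1.13, -0.38), *Fabp5*, with 443 and 181 counts (-1.02, -1.53) and *Acbd6*, with 1596 and 924 counts (-0.52, -1.41), were lower either way.

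The acyl-CoA made by ACSL enzymes enters mitochondria through the carnitine shuttle. Of a list of 7 genes of this shuttle and of related carnitine acyltransferases, 2 were higher and 5 lower, with a median log2 ratio of -0.27. After removal of the trends 4 were above and 3 below 0, with a median of 0.07. *Cpt1a*, the rate-limiting step in liver, had 31370 and 35483 counts (0.44, 0.42), and *Crot*, the peroxisomal carnitine octanoyltransferase, 9381 and 21794 (1.48, 0.61). *Slc25a20*, the carnitine-acylcarnitine carrier, had 9110 and 7225 counts (-0.07, 0.07) and *Cpt2* 11626 and 8038 (-0.27, 0.10), and both changed direction. *Crat* had 7778 and 4095 counts (-0.66, -0.38) and the muscle form *Cpt1b* 373 and 101 (-1.60, -1.15). Genes that use acyl-CoA for glycerolipids and cholesterol esters were lower in 8 of 12, with a median of -0.48. Without the trends 7 of 12 were below 0 and the median was -0.05. Of these, *Gpam*, the mitochondrial enzyme that begins glycerolipid synthesis, had 16457 and 18479 counts (0.43, -0.19), *Gpat3* 852 and 893 (0.33, 0.01) and *Soat1* 180 and 208 (0.47, -0.99). *Soat2*, which makes cholesterol esters in hepatocytes, had 2477 and 1095 counts (-0.91, -0.34), *Agpat3* 24696 and 12245 (-0.75, -0.66) and *Mboat7* 2832 and 1463 (-0.69, -0.09).

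For medium-chain acyl-CoA, the 3 glycine conjugation genes with enough counts of 4 listed were higher. *Glyat*, the glycine N-acyltransferase, had 4989 and 8139 counts (0.97, -0.40), *Keg1* 4163 and 5101 (0.56, -0.04) and *Gm4952* 3540 and 4306 (0.55, -0.66). All 3 were below 0 with the trends removed, and their median went from 0.56 to -0.40. Of the genes that handle propionyl-CoA and other short chains, 4 of 6 were higher, with a median of 0.36, and with the trends removed 5 of 6 were above 0, with a median of 0.19. *Hibch* had 495 and 2342 counts (2.50, 1.41), *Mmut*, the methylmalonyl-CoA mutase, 2609 and 6539 (1.59, 0.28) and *Pcca* 2901 and 3981 (0.72, 0.28). *Ivd* had 8700 and 7263 counts (0.00, 0.01), *Pccb* 11267 and 8764 (-0.10, 0.11) and *Mcee* 2270 and 1537 (-0.30, -0.10).

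Acetyl-CoA made by ACSS2 feeds fatty acid synthesis. Of 9 genes of this list 6 were higher and 3 lower, with a median log2 ratio of 0.02. The counts were also 6 and 3 with the trends removed, with a median of 0.09, but not for the same genes. The elongase *Elovl6* had 1506 and 5785 counts (2.20, 0.95), *Pdha1* 4339 and 6320 (0.81, 0.16) and *Acaca*, acetyl-CoA carboxylase, 7817 and 10594 (0.70, -0.07), and the last of these changed direction. Fatty acid synthase, *Fasn*, had 88364 and 45025 counts (-0.71, -0.74), so it lay on the other side of 1 from *Acss2* both ways. *Mlycd* had 7198 and 3737 counts (-0.68, 0.09) and the citrate carrier *Slc25a1* 21231 and 13158 (-0.43, 0.38), and both changed direction, as did *Pdhb* (0.02, -0.26). Of 14 transcription factors and regulators of lipid genes, 6 were higher and 8 lower, with a median of -0.14. Removal of the trends reversed the balance, with 9 above and 5 below 0 and a median of 0.09. *Ppara*, which drives fatty acid oxidation genes including *Acsl1*, had 15638 and 22836 counts (0.81, 0.92) and *Insig1* 6677 and 8630 (0.63, 0.38). *Ppargc1a* had 103 and 216 counts (1.31, -0.36), so its direction changed. *Srebf1*, which drives lipid synthesis genes including *Acss2*, had 33483 and 18436 counts (-0.60, -0.12) and *Nr1h2* 2762 and 1204 (-0.93, -0.14). *Nr1h3* had 8704 and 4724 counts (-0.62, 0.11) and changed direction.

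A list of genes of arachidonate metabolism and ferroptosis, processes in which ACSL4 takes part, held 6 genes with enough counts, of which 1 was higher and 5 lower, with a median of -0.32. With the trends removed 3 were above and 3 below 0, with a median of -0.08. *Alox15*, 1 of the 6, had 18 and 0 counts and passed the filter only through AAV-GFP. It counts among the lower genes both ways, so both medians rest in part on it. The other genes of this list with enough counts are those named next. *Gpx4*, the lipid hydroperoxide glutathione peroxidase, had 41780 and 12265 counts (-1.50, -0.66). *Lpcat3*, which places polyunsaturated acyl-CoA into phospholipids, had 10363 and 6080 counts (-0.51, -0.19). *Aifm2* had 1589 and 1214 counts (-0.12, 0.30) and *Ptgs1* 1095 and 846 (-0.11, 0.03), and both changed direction. The gene that was higher was the transferrin receptor *Tfrc*, which takes up iron and favours ferroptosis, with 193 and 866 counts (2.42, 0.80).

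The tissue label was checked against lists of marker genes. Hepatocyte markers were present in both libraries, with 10 of 10 kept, and summed to 87475 TPM in AAV-GFP and 96959 TPM in AAV-*Wee1-AS*. *Alb* had 37459 and 53289 TPM, and without it the sum was 50016 and 43671 TPM. Of the 10 genes 4 were higher and 6 lower, with a median log2 ratio of -0.11, and with the trends removed 5 were above and 5 below 0, with a median of 0.06. *Cps1* (1.21, 0.38), *Fgb* (0.79, -0.22) and *Alb* (0.53, 0.23) had the highest ratios and *Ttr* (-0.62, -1.01), *Tat* (-0.50, -0.52) and *Asgr1* (-0.38, -0.05) the lowest. All 5 kidney tubule markers and all 4 muscle markers were at 0 in both libraries. Of the adipocyte markers *Plin1* and *Lep* were at 0 in both and *Adipoq* had 2 counts in each, while *Fabp4* had 399 and 408 counts (0.29, -0.88). Of the small intestine markers *Lct*, *Cdh17* and *Sis* were at 0 in both, and *Fabp2*, which hepatocytes also express, had 160.1 and 175.1 TPM (0.15, -0.85). Markers of other liver cells summed to 387 and 310 TPM for Kupffer cells, 116 and 121 TPM for stellate cells, 160.2 and 144 TPM for endothelial cells and 44.1 and 37.9 TPM for cholangiocytes. Within these lists single genes went in both directions. Of the 7 stellate cell markers 4 were higher and 3 lower, with a median log2 ratio of 0.25, but 1 was above and 6 below 0 with the trends removed, with a median of -0.37. *Hgf* (1.52, 0.10), *Lrat* (1.46, -0.04) and *Dcn* (0.33, -0.62) were higher, and *Des* (-0.59, 0.00), *Pdgfrb* (-1.09, -0.90) and *Col1a1* (-2.32, -2.01), the type I collagen of activated stellate cells with 3620 and 603 counts, were lower. Of the 7 Kupffer cell markers 4 were higher and 3 lower, with a median of 0.09, and 4 were above and 3 below 0 with the trends removed, with a median of 0.15. *Marco* (1.60, 2.18), *Vsig4* (1.52, 0.83) and *Timd4* (1.40, 0.64) were higher, and *Cd5l* (-0.76, -0.50), *Csf1r* (-0.40, -0.17) and *Clec4f* (-0.15, 0.15) were lower. Of the 6 endothelial markers 3 were higher and 3 lower, with a median of -0.03, and 1 was above and 5 below 0 with the trends removed, with a median of -0.34. *Kdr* (0.55, 0.11), *Fcgr2b* (0.30, -0.46) and *Pecam1* (0.04, -0.01) were higher, and *Lyve1* (-0.09, -0.70), *Stab2* (-0.27, -0.63) and *Clec4g* (-0.50, -0.21) were lower. Of the 5 cholangiocyte markers 2 were higher and 3 lower, with a median of -0.18, and 3 were above and 2 below 0 with the trends removed, with a median of 0.08. *Sox9* (0.79, 0.52) was higher and *Spp1* (-0.21, -1.11) lower. The part of other cells in the synthetase counts was not tested.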

How the data were processed

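Liver RNA was purified as poly-A RNA, made into libraries with a kit that marks strand and sequenced as paired-end reads of 100 bases. Per the labels' processing notes, the tools were Trimmomatic 0.38, HISAT2 2.1.0, SAMtools 1.9 and StringTie 2.1.3b, with the build mm10. The authors deposited 1 table of 129299 transcripts with, for each library, an estimated read count, an FPKM value and a TPM value. The deposited estimated counts are not normalized and are shares assigned to overlapping transcripts, rounded to whole numbers. The deposited FPKM values are scaled to length and library, and the deposited TPM values to an equal sum per library. No column of per-sample values was left unmatched.

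Counts were summed per gene symbol and scaled by TMM (edgeR 4.0.16, R 4.3.3), with a prior count of 2 and a filter of at least 10 counts in at least 1 library. Ratios and shares have exact (Clopper-Pearson) 95% intervals, which cover counting error only. Transcripts or genes with 3 counts or fewer in a library are given by their counts, with no fold. GC content and length came from the longest protein-coding GENCODE M21 transcript of a gene (GRCm38), or its longest transcript where none is protein-coding, for 95.3% of the genes kept, and their trends were removed by lowess fits (span 0.3, 5 cycles; statsmodels 0.14.6, Python 3.11.15). The upstream windows came from RefSeq (GRCm38.p6). The steps were tested on simulated data.

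The members and lists were chosen with earlier results of these data known. Named genes were the 8 members, genes that overlap them and, of each list, those that reached 100 counts in either library, or, where these were over 6, the 3 highest and 3 lowest ratios. Single marker genes at or near 0, *Acsm2*, *Acsm4*, *Acss1*, *Alox15* and *Pdhb* were named outside this rule after their values were seen. With 1 library per group no test was run. The alternatives tried were scaling by library totals, by the upper quartile or by size factors of DESeq2 1.42.0, a prior count of 0.5, FPKM or TPM with a pseudocount of 1, curated transcripts only, removal of the GC and length trends and 3 other count filters.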

Additional observations from a re-analysis of the deposited data

How the results depend on the processing

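With 1 library per group, a value was compared with its counting interval. All 8 synthetases were above a ratio of 1 under each alternative scaling, under the prior count of 0.5 and with FPKM or TPM. Under the other alternatives the exceptions were *Acsl5* with curated transcripts only (log2 ratio -1.28), and *Acsl5* and *Acsl4* with the GC and length trends removed (-0.054 and -0.076). For *Acsl5* the length used in that removal was not that of its main transcript. The number of synthetases past 2-fold was 4, became 3 under the alternative scalings and with FPKM or TPM, 5 with curated transcripts (4 higher and *Acsl5* lower) and 0 with the trends removed. The median log2 ratio of the 8 (0.75) was 0.69 with library totals, 0.72 with DESeq2 size factors, 0.54 with the upper quartile, 0.70 with FPKM, 0.85 with curated transcripts and 0.35 with the trends removed. The upper quartile moved the median of all genes to -0.22, so relative to it the 8 did not move down. That of the other acyl-CoA synthetases (0.32) was 0.40 with curated transcripts, 0.11 with the upper quartile, 0.041 with FPKM and 0.08 with TPM. Of all genes, 3527 were higher past 2-fold, against 1029 with FPKM, 1608 with TPM and 1000 with the trends removed, and 1381 were lower, against 2232 with the upper quartile, 307 with FPKM, 438 with TPM, 2126 with no count filter, 884 with at least 10 counts in both libraries and 825 with at least 50 in a library. The pseudocount of 1 draws genes of low FPKM or TPM toward a ratio of 1 by construction, and filters change the number of genes tested. For the other shifts the cause was not tested. The 16 leading transcript shares were recomputed with TPM or with curated transcripts only, and 13 of the 30 new values left their counting interval. With curated transcripts only, the shares in *Acsm1* and *Acsm5* were 100% by construction, because each has 1 curated transcript. That of *Acss2*, with 1 transcript, was 100% throughout. The share of NM_019477 in *Acsl4* in AAV-*Wee1-AS* became 74.0% with curated transcripts. No paired analysis was possible because each group had 1 library. Depth limits *Acsl3* and *Acsl4* most, whose intervals are the widest of the 8.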
